A study of Homo sapiens with 10 samples.

Results

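The mitochondrial ribosomal protein genes were examined on Affymetrix U133A arrays of MOLT-4, a human cell line from T-cell acute lymphoblastic leukaemia, during treatment with MABL, an antibody against the surface protein CD47. Probe sets were taken as members where the platform annotation gave them 1 gene symbol and that symbol was MRPS or MRPL followed by a number, with or without an A or B. This gave 63 probe sets of 50 genes among the 22283 of the array, of which 28 probe sets of 19 genes had MRPS (small subunit) symbols and 35 probe sets of 31 genes had MRPL (large subunit) symbols. The 10 arrays held 2 replicates at each of 0 h, 0.5 h, 1 h, 3 h and 6 h, and per the labels the cells of all 5 groups, 0 h included, carried 10 ug/mL MABL with 50 ug/mL GAM, an abbreviation that is not spelled out there. No time-matched arrays without antibody were analysed here, so antibody, GAM, time in culture and handling cannot be told apart in a difference from 0 h. No source says whether the replicates were grown as separate cultures, and the p-values reflect no more than the spread of these samples, possibly technical, and the number of arrays limits the precision.

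Mitochondria translate the small set of proteins encoded in their own DNA, all of them parts of the respiratory chain and ATP synthase, on ribosomes of their own. The proteins of these ribosomes are encoded in the nucleus, made in the cytosol and imported. The small subunit reads the messenger RNA, and the large subunit joins the amino acids. Some of the proteins have bacterial counterparts and others are found only in mitochondrial ribosomes.

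Levels are given as the square root of the deposited value, taken as log2, and a difference between times is called a change. A probe set was tested if at least 2 of the 10 arrays reached log2 5, a deposited value of 25. Of the 63 members, 48 probe sets of 43 genes (76.2%) passed, against 19.1% of the other probe sets of the array, controls left out. They comprised 17 of the 28 small subunit probe sets (15 genes) and 31 of the 35 large subunit probe sets (28 genes), and 41 of the 48 were at log2 5 or higher on all 10 arrays. Just inside the filter lay MRPS10, with 3 arrays at log2 5 or higher, all of them at 0 h or 0.5 h. Just outside it lay the MRPS14 probe set 203800_s_at, with 1 such array and values of 3.72 to 5.09.

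The levels of the tested members, averaged over all arrays, ran from 4.80 to 10.36. Probe sets differ in how well they bind their targets, so these levels do not rank the amounts of the transcripts. The 5 brightest were MRPL20, the MRPL57 probe set 204386_s_at, MRPL23, MRPL18 and MRPL12, the last encoding the stalk protein that recruits translation factors. MRPL23, a protein at the rim of the exit tunnel, read 9.43 to 9.76 over the 10 arrays, and MRPL12 read 8.61 to 9.31; neither was called at any time. The 5 steadiest members were the MRPL57 probe set 204387_x_at, whose time means spanned 0.15, MRPL28, MRPL2 (a protein near the peptidyl transferase centre), the MRPS18A probe set 218385_at and MRPL40, whose time means spanned 0.22.

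**Figure D1:**
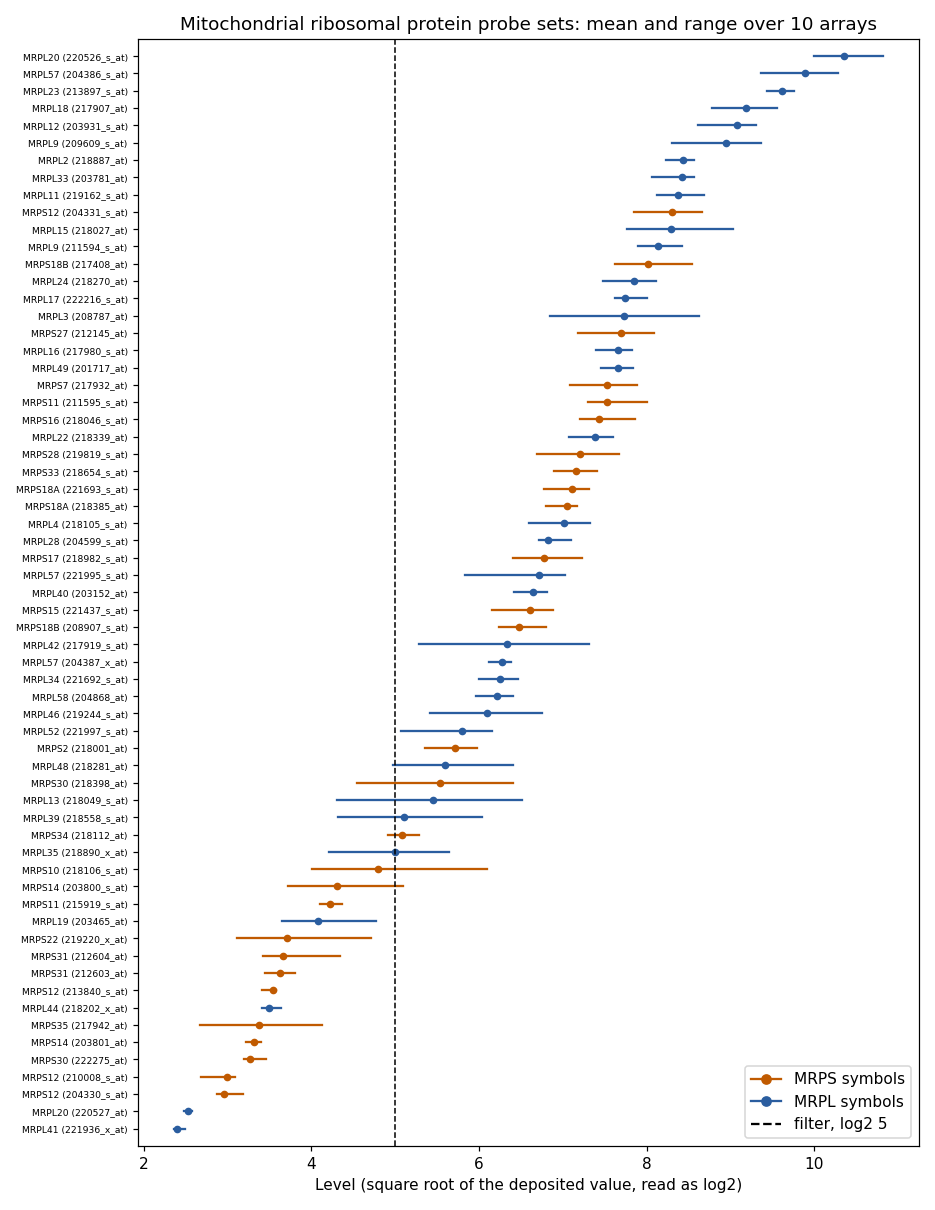
Mean level (square root of the deposited value, read as log2, horizontal axis) of each of the 63 member probe sets, with lines from the lowest to the highest of the 10 arrays, and the filter at log2 5 as a dashed line. Of the members, 48 were tested, and 15 had fewer than 2 arrays at log2 5.

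The 15 members below the filter were not tested, and most of them varied little between arrays. The widest spans of time means were those of MRPS22 (1.19), MRPS35 (1.00), MRPS14 203800_s_at (0.79) and MRPL19 (0.74). MRPS22, a small subunit protein, read 4.71 and 3.97 at 0 h, 3.27 and 3.39 at 0.5 h, 3.11 and 3.20 at 1 h, 3.62 and 3.44 at 3 h, and 4.04 and 4.37 at 6 h. MRPS35 read 2.67 and 2.86 at 1 h, against 3.87 and 3.66 at 0 h, and MRPL19 read 4.00 and 4.06 at 1 h, against 4.41 and 4.77 at 0 h. In MRPS22, MRPS35 and MRPL19 both arrays of 1 h lay below both of 0 h. The same was so in 1668 of the 4276 tested probe sets of the array, a set that holds no member below the filter. The genes named here had the widest spans. Other members below the filter went either way at 1 h. For example, both MRPS31 probe sets lay below 0 h, and MRPL44 and MRPL41 lay above it. MRPS14 203800_s_at read 4.60 and 3.92 at 1 h, overlapping the 5.09 and 4.49 of 0 h, and had its lowest mean at 6 h. No fold is given at these levels.

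The arrays themselves differed between times. The median level of all tested probe sets was lower than at 0 h, in order of time, by 0.13, 0.29, 0.31 and 0.25 on the log2 scale. The probe sets for 18S ribosomal RNA, which is not polyadenylated, averaged 1.41, 1.65, 2.16 and 2.63 above 0 h at those times, and the hybridization spike-ins averaged 0.27, 0.25, 0.77 and 0.64 above 0 h. Their part in the results was not tested, beyond the settings reported beside them. Across the tested probe sets the correlation between 2 arrays was 0.991 to 0.994 within a time and 0.949 to 0.992 between times. Of a list of T-lineage markers, 10 of 14 genes passed the filter and 0, 1, 1 and 1 of their 14 tested probe sets were lower at the 4 later times, with 0 higher, and of 11 genes marking other blood cells none of the 19 probe sets did, with array values of 1.60 to 4.00.

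Taken over the 5 times, 20 of the 48 tested members changed in limma's F test at an adjusted p under 0.05, or 41.7%, against 39.6% of all 4276 tested probe sets. At 0.5 h, 2 members were higher and 5 lower than at 0 h (background 1.92% higher and 15.1% lower). At 1 h, 7 were higher and 10 lower (background 4.14% higher and 24.2% lower). At 3 h, 2 were higher and 9 lower (background 2.53% and 26.4%), and at 6 h, 1 was higher and 9 lower (background 4.07% and 21.6%). Arrays that do not overlap those of 0 h were common. At the 4 later times both arrays lay below both of 0 h in 1344, 1668, 2037 and 2035 of the 4276 tested probe sets. In the same order they lay above in 1246, 1255, 894 and 809. Among the 48 tested members 15, 13, 23 and 18 lay below and 20, 22, 8 and 8 above. These 4 comparisons share the 0 h arrays. Over them, 23 probe sets of 22 genes (47.9%) were called at some time, against 46.6% of all tested probe sets, so the share of members that changed was near the background. In bulk RNA, fewer cells holding a transcript and less of that transcript per cell cannot be told apart.

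The split between higher and lower calls depended on the scaling. With every array set to the same median over the tested probe sets, 25 members were higher and 7 lower at 1 h, against 32.5% higher and 19.5% lower of all tested probe sets. Under that scaling the counts were 4 higher and 5 lower at 0.5 h (6.9% and 15.3% of all tested probe sets), 10 higher and 6 lower at 3 h (23.1% and 17.8%), and 7 higher and 5 lower at 6 h (14.3% and 14.1%). With the spike-in level of each array as a covariate, limma called 1 member at 0.5 h and 11 members at 1 h (5.47% and 18.5% of all tested probe sets). At 3 h that fit called 0 members and at 6 h also 0 (6 and 8 at an unadjusted p under 0.05), and 0 and 21 of all tested probe sets. Every call of a member at 3 h or 6 h against 0 h therefore ended in that fit, while 11 members were called at 6 h against 1 h (10.8% of all tested probe sets). No called member reversed its direction under any setting run.

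**Figure D2:**
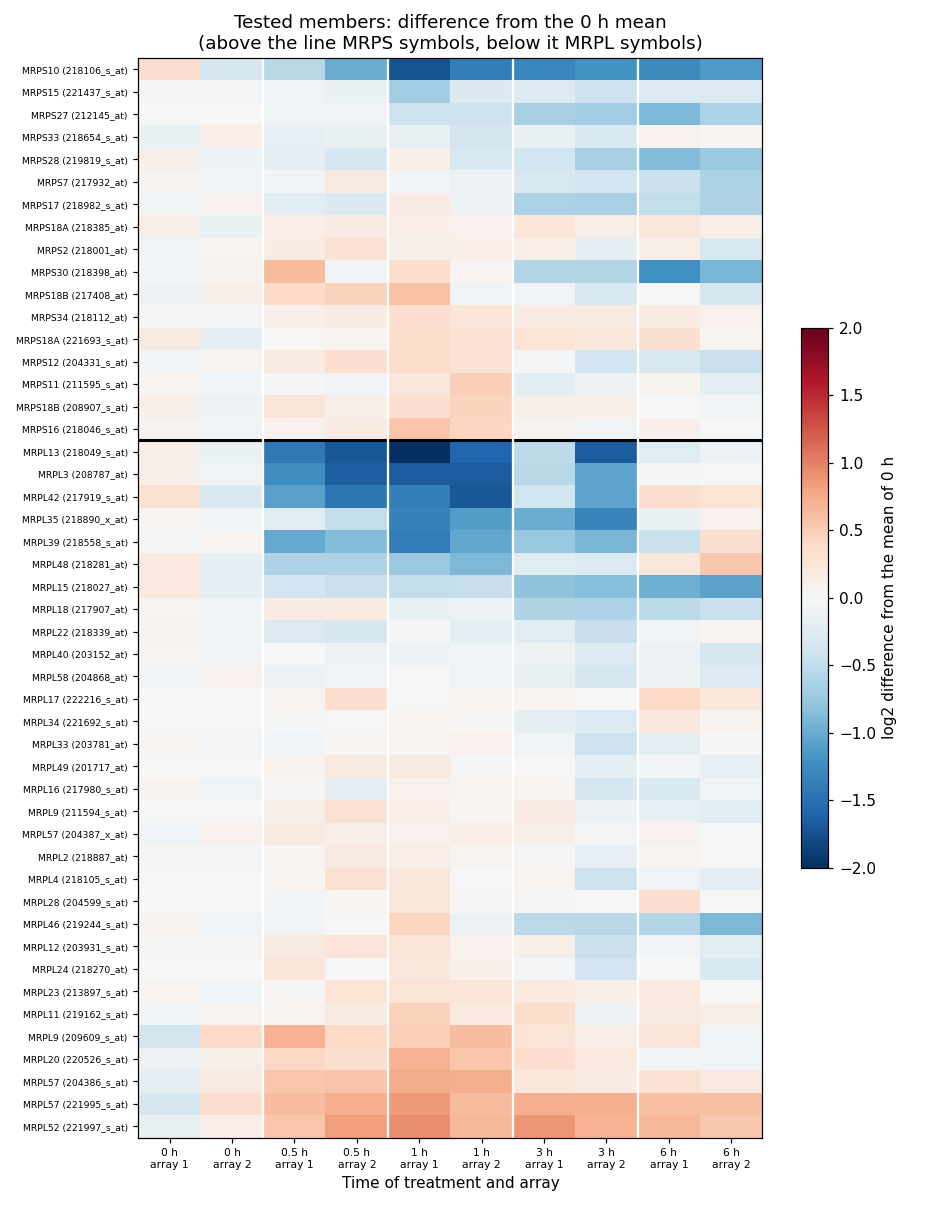
Difference of each tested member from the mean of its 0 h arrays (colour, log2) on each of the 10 arrays (columns, in order of time), with MRPS symbols above the line and MRPL symbols below it. Among the dark blue cells are those in the 0.5 h and 1 h columns of MRPL13, MRPL3 and MRPL42, whose 6 h columns are close to 0 h. Others lie in the columns of MRPS10 from 1 h on, of MRPL35 at 1 h and 3 h and of MRPL39 at 1 h, and in array 2 of 3 h for MRPL13.

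In the large subunit 7 of 31 members were lower at 1 h (background 24.2%), and 6 of them were not called against 0 h at 6 h. MRPL3, MRPL42, MRPL48, MRPL13, MRPL39 and MRPL35 fell by 0.82 to 1.83 on the log2 scale at 1 h against 0 h, and all 6 were higher at 6 h than at 1 h by 1.15 to 1.83. At 6 h their changes from 0 h were between -0.18 and 0.38, none of them called, but with equal array medians MRPL48 was called higher. These values rest on 2 comparisons that share the 1 h arrays.

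MRPL3 encodes the counterpart of bacterial L3, which reaches towards the peptidyl transferase centre. It read 8.62 and 8.43 at 0 h, 7.28 and 6.87 at 0.5 h, 6.86 and 6.85 at 1 h, 7.96 and 7.47 at 3 h, and 8.49 and 8.51 at 6 h. Both arrays of 0.5 h, 1 h and 3 h lay below both of 0 h, while the 6 h arrays lay between those of 0 h. The change was -1.45 at 0.5 h (SE 0.187, limma adjusted p = 0.00402), -1.67 at 1 h (adjusted p = 0.000904), -0.81 at 3 h (adjusted p = 0.0151) and -0.02 at 6 h (adjusted p = 0.951). From 1 h it was higher at 6 h by 1.65 (adjusted p = 0.000944). The calls at 0.5 h and 1 h and between 6 h and 1 h held in every setting run, and the call at 3 h ended without 0 h replicate 1 (-0.72, adjusted p = 0.101) and on leaving out 3 h replicate 2 (-0.56, adjusted p = 0.0844).

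MRPL42, a protein found only in mitochondrial ribosomes, read 7.28 and 6.66 at 0 h, 5.88 and 5.53 at 0.5 h, 5.61 and 5.28 at 1 h, 6.57 and 5.92 at 3 h, and 7.31 and 7.24 at 6 h. The arrays of 0.5 h and 1 h lay below all of 0 h and 6 h. Its change was -1.26 at 0.5 h (SE 0.268, limma adjusted p = 0.0163), -1.52 at 1 h (adjusted p = 0.00416) and 0.31 at 6 h (adjusted p = 0.446), and at 6 h it was 1.83 above 1 h (adjusted p = 0.00252). At 3 h the change of -0.72 missed the threshold (adjusted p = 0.0787). The 0.5 h call ended without 0 h replicate 1 (-0.95) or on leaving out 0.5 h replicate 2 (-1.09), with adjusted p of 0.116 to 0.117.

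MRPL48, which lies in the central protuberance of the subunit, read 6.07 and 5.67 at 0 h, 5.26 and 5.24 at 0.5 h, 5.12 and 4.97 at 1 h, 5.62 and 5.59 at 3 h, and 6.09 and 6.41 at 6 h. Every array of 0.5 h, 1 h and 3 h lay below both of 0 h, and both of 6 h lay above them. The change was -0.62 at 0.5 h (SE 0.157, limma adjusted p = 0.0308), -0.82 at 1 h (adjusted p = 0.00597), -0.27 at 3 h (adjusted p = 0.249) and 0.38 at 6 h (adjusted p = 0.112). With equal array medians the 6 h change was 0.63 (adjusted p = 0.0105) and with quantile normalization applied again 0.59 (adjusted p = 0.0179), both called. It was higher at 6 h than at 1 h by 1.20 (adjusted p = 0.00152). The 0.5 h call ended without 0 h replicate 1 or either 0.5 h array (changes of -0.63 to -0.42, adjusted p of 0.101 to 0.189).

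MRPL13, MRPL39 and MRPL35 reached log2 5 at 0 h and 6 h but lay below it at 1 h. They passed the filter only through arrays of other times than 1 h. MRPL13, the counterpart of bacterial L13, read 6.51 and 6.26 at 0 h, 4.96 and 4.69 at 0.5 h, 4.31 and 4.81 at 1 h, 5.86 and 4.73 at 3 h, and 6.14 and 6.27 at 6 h. MRPL39, which resembles part of a threonyl-tRNA synthetase, read 5.68 and 5.75, then 4.68 and 4.85, then 4.32 and 4.67, then 4.95 and 4.80, and 5.27 and 6.03 at the same times. MRPL35, the counterpart of bacterial L35, read 5.61 and 5.50, then 5.31 and 5.06, then 4.21 and 4.45, then 4.56 and 4.23, and 5.43 and 5.64. For all 3, both arrays of 1 h lay below both of 0 h and both of 6 h.

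Against 0 h, MRPL13 changed by -1.56 at 0.5 h (SE 0.334, limma adjusted p = 0.0168), -1.83 at 1 h (adjusted p = 0.00499) and -1.09 at 3 h (adjusted p = 0.042), and MRPL39 by -0.94 (SE 0.234, adjusted p = 0.0286), -1.22 (adjusted p = 0.00611) and -0.83 (adjusted p = 0.0307). MRPL35 was not called at 0.5 h (-0.38, SE 0.157, adjusted p = 0.154) and was called for its changes of -1.23 at 1 h (adjusted p = 0.00128) and -1.16 at 3 h (adjusted p = 0.00268). The 3 genes were higher at 6 h than at 1 h by 1.65, 1.15 and 1.20, with adjusted p of 0.0102, 0.0104 and 0.00152. With values below log2 5 raised to 5, the 1 h changes were smaller, -1.39 for MRPL13, -0.71 for MRPL39 and -0.56 for MRPL35, and stayed called. Both 1 h arrays of each gene then stood at 5. These calls therefore show only that 0 h lay above log2 5 and do not measure the fall.

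The 1 h calls of MRPL13, MRPL39 and MRPL35, and both later calls of MRPL35, held with any 1 array left out. Without a filter the 1 h calls of MRPL13 and MRPL39 ended (limma adjusted p = 0.056 and 0.0582). The 0.5 h calls of MRPL13 and MRPL39 ended without either array of 0 h or of 0.5 h (adjusted p of 0.051 to 0.118 for MRPL13 and 0.107 to 0.13 for MRPL39). At 3 h the call of MRPL13 ended without any array other than 3 h replicate 1 (-1.22 to -0.53, adjusted p of 0.0537 to 0.194), and that of MRPL39 without either array of 0 h or 3 h (adjusted p of 0.0624 to 0.137), with equal array medians (-0.52, adjusted p = 0.0641) and with quantile normalization again (-0.58, adjusted p = 0.0574). The difference between 6 h and 1 h lost its call without 1 h replicate 1 in both (MRPL13 1.40, MRPL39 0.97, adjusted p = 0.075 and 0.0749), and for MRPL13 also without 6 h replicate 2 (1.58, adjusted p = 0.0603). With values raised to log2 5 the calls of MRPL39 at 0.5 h (-0.71, adjusted p = 0.056) and between 6 h and 1 h (0.65, adjusted p = 0.063) ended too.

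**Figure D3:**
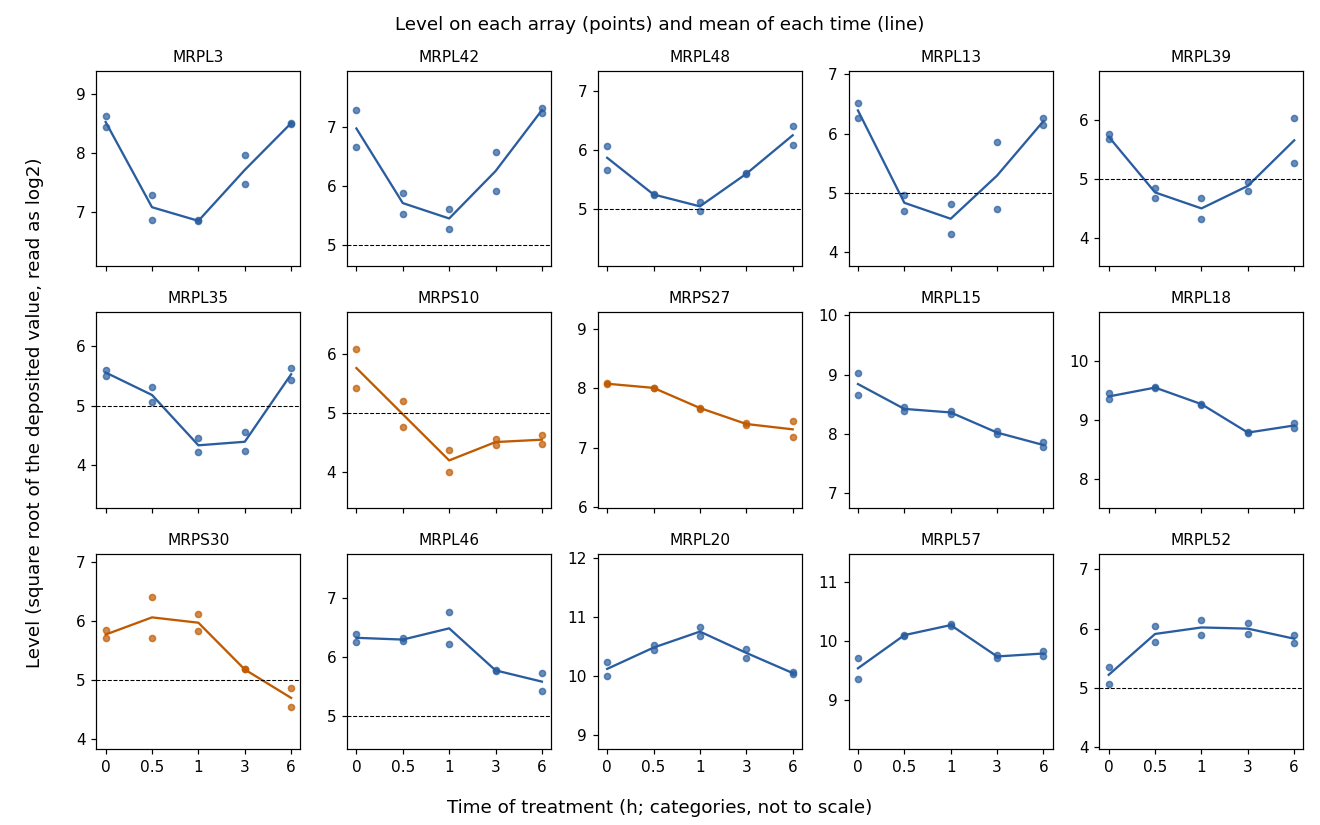
Level on each array (points) and mean of each time (line) for 15 members, on the square root scale read as log2 (vertical axis, a span of equal size in every panel) over the 5 times in hours (horizontal axis, as categories); orange marks MRPS and blue MRPL symbols, the dashed line is log2 5, and MRPL57 is its probe set 204386_s_at. The 6 panels from MRPL3 to MRPL35 have their lowest mean at 1 h, while MRPS27 and MRPL15 have theirs at 6 h.

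MRPL15, MRPL18 and MRPL46 had another course, with their lowest levels at 3 h or 6 h. MRPL15, the counterpart of bacterial L15, read 9.03 and 8.65 at 0 h, 8.46 and 8.39 at 0.5 h, 8.34 and 8.38 at 1 h, 8.04 and 7.99 at 3 h, and 7.86 and 7.77 at 6 h. Its change was -0.48 at 1 h (SE 0.132, limma adjusted p = 0.0291), -0.82 at 3 h (adjusted p = 0.00426) and -1.02 at 6 h (adjusted p = 0.00226), and every array after 0 h lay below both of 0 h. The 1 h call ended without 0 h replicate 1 (-0.29) or either 1 h array (adjusted p of 0.0991 to 0.16), with equal array medians (-0.19, adjusted p = 0.279) and with quantile normalization again (-0.28, adjusted p = 0.114).

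MRPL18, the counterpart of bacterial L18 and one of the 5 brightest, read 9.46 and 9.35 at 0 h, 9.56 and 9.55 at 0.5 h, 9.26 and 9.28 at 1 h, 8.80 and 8.78 at 3 h, and 8.87 and 8.95 at 6 h. All 4 arrays of 3 h and 6 h lay below every earlier array. The change was -0.61 at 3 h (SE 0.0923, limma adjusted p = 0.00346) and -0.50 at 6 h (adjusted p = 0.00739). With equal array medians the calls ended, at -0.30 for 3 h (adjusted p = 0.0688) and -0.25 for 6 h (adjusted p = 0.151), and the 6 h call also ended without 0 h replicate 1 (-0.44, adjusted p = 0.0541).

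MRPL46, found only in mitochondrial ribosomes, read 5.73 and 5.42 at 6 h, against 6.39 and 6.25 at 0 h. The change was -0.75 (SE 0.181, limma adjusted p = 0.0192), and the call ended without either 0 h array or 6 h replicate 2 (-0.82 to -0.59, adjusted p of 0.0529 to 0.113) and with equal array medians (-0.50, adjusted p = 0.0564). Its promoter region is shared: the RefSeq starts of MRPL46 and MRPS11, on opposite strands of human chromosome 15, are 320 bases apart in GRCh38.p14. MRPS11, from the small subunit, read 7.58 and 7.33 at 6 h, against 7.56 and 7.46 at 0 h, a change of -0.06 (SE 0.13, adjusted p = 0.784) with overlapping arrays. Whether the 2 genes of this pair differed in their change was not tested.

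The members called higher in the large subunit were MRPL52, MRPL20 and 2 probe sets of MRPL57. MRPL52, found only in mitochondrial ribosomes, was the 1 member higher at every later time. It read 5.07 and 5.36 at 0 h, 5.78 and 6.05 at 0.5 h, 6.15 and 5.89 at 1 h, 6.10 and 5.91 at 3 h, and 5.89 and 5.76 at 6 h, with all later arrays above both of 0 h. The changes were 0.70, 0.81, 0.79 and 0.61 (SE 0.157, limma adjusted p = 0.0203, 0.00631, 0.00861 and 0.0238). Without 0 h replicate 1 they were 0.55, 0.66, 0.64 and 0.46 and none was called (adjusted p of 0.0531 to 0.149). The 0.5 h call also ended without 0.5 h replicate 2 (0.57, adjusted p = 0.138), and the 6 h call without 6 h replicate 1 (0.55, adjusted p = 0.12) or on leaving out 6 h replicate 2 (0.68, adjusted p = 0.0549).

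MRPL20, the counterpart of bacterial L20, read 10.00 and 10.23 at 0 h, 10.53 and 10.44 at 0.5 h, 10.82 and 10.67 at 1 h, 10.46 and 10.31 at 3 h, and 10.06 and 10.04 at 6 h. It was highest at 1 h, by 0.63 over 0 h (SE 0.117, limma adjusted p = 0.00519), and at 6 h was lower than at 1 h by 0.70 (adjusted p = 0.00459). Both calls held in every setting run. The change from 0 h at 6 h was -0.07 (adjusted p = 0.728).

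MRPL57 was measured by 3 tested probe sets, which did not agree in size. The brightest, 204386_s_at, read 9.36 and 9.72 at 0 h, 10.09 and 10.11 at 0.5 h, 10.28 and 10.26 at 1 h, 9.77 and 9.71 at 3 h, and 9.84 and 9.74 at 6 h. Its changes were 0.56 at 0.5 h (SE 0.126, limma adjusted p = 0.0206) and 0.73 at 1 h (adjusted p = 0.00397), the second held in every setting run and the first ended without 0 h replicate 1 or either 0.5 h array (0.38 to 0.57, adjusted p of 0.0737 to 0.115). The probe set 221995_s_at changed by 0.74 at 1 h (SE 0.199, adjusted p = 0.0253) and 0.72 at 3 h (adjusted p = 0.0293), and both calls ended without 0 h replicate 1 (0.40 and 0.38) or either array of the later time (adjusted p of 0.066 to 0.131 at 1 h and 0.0842 to 0.115 at 3 h). The third, 204387_x_at, had a change of 0.10 at 1 h (SE 0.105, adjusted p = 0.548). Names ending in _s_at or _x_at mark probe sets whose probes can bind other transcripts too.

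Promoter windows of 250 bases before the RefSeq start (GRCh38.p14) were found for 44 of the 50 genes, 56 windows in all. They were searched on both strands for the letters GCATGCG (NRF1), CCGGAAG (ETS family), AAGATGG (YY1) and GGGCGG (SP1), factors known to act at promoters of genes for mitochondrial proteins, and no letters of these motifs contain another. NRF1 letters stood in 5 of the members' windows (8.93%), against 3.39% of all 35116 windows of the table. ETS letters stood in 14 (25%, against 8.52%), YY1 letters in 7 (12.5%, against 3.7%) and SP1 letters in 33 (58.9%, against 42.6%). Windows of the same gene can overlap, so the same site can count more than once. This was so in MRPL49 (YY1), MRPS12 (YY1 and SP1), MRPL18 (SP1) and MRPS22 (ETS). The table holds genes whether or not they were tested here, and no difference between these shares was tested. A match is a description and not a bound site, and nothing here measured binding. The windows of 6 members are printed, 5′ to 3′ on the gene's strand with matches in capitals, because these are the members with a matched window whose 1 h call against 0 h held in every setting run. A filter at log2 7, which MRPL48 and MRPS10 did not pass, was not run for these 2.
MRPL3 (chr3:131502972-131503221, minus strand): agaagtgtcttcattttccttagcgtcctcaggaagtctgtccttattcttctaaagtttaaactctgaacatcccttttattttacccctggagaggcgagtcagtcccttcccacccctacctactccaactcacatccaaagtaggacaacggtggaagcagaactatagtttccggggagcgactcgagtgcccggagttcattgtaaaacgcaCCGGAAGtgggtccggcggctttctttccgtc
MRPL48 (chr11:73787624-73787873, plus strand): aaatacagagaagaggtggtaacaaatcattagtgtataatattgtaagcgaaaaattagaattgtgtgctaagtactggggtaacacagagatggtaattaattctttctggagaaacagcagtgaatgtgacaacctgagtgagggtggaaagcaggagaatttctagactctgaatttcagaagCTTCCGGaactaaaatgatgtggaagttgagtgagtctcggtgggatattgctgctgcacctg
MRPL42 (chr12:93467264-93467513, plus strand): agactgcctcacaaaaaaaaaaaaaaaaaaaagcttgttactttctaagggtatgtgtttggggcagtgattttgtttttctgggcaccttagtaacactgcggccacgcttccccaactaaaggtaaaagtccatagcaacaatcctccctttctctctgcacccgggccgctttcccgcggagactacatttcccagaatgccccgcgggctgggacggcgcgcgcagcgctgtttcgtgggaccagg
MRPS10 (chr6:42217862-42218111, minus strand): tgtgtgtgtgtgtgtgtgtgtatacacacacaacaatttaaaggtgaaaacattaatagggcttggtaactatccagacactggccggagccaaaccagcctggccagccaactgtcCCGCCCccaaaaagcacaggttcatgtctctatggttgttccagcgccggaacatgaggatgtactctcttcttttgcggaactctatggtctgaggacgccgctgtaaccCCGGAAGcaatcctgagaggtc
MRPL20 (chr1:1407294-1407543, minus strand): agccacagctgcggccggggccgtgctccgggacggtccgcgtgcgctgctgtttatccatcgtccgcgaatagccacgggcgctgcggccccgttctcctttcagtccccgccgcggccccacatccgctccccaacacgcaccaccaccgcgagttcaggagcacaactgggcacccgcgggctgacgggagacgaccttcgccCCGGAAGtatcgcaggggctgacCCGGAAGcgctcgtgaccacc
MRPL57 (chr13:21176408-21176657, plus strand): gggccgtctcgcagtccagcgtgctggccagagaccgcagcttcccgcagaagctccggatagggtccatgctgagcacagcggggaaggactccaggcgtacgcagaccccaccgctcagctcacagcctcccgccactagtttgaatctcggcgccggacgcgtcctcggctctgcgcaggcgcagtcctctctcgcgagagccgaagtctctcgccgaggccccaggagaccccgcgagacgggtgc
MRPL3, MRPL48 and MRPS10, called lower at 1 h, each held the ETS letters once, and MRPL20, called higher at 1 h, held them at 2 places. MRPS10 also held the SP1 letters. MRPL42, called lower at 1 h, and MRPL57, called higher, held none of the 4.

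In the small subunit no member was called at 0.5 h in limma's test, where 0 were higher and 1 lower at an unadjusted p under 0.05. At 1 h 3 of the 17 were higher and 3 lower (background 4.14% and 24.2%), and at 6 h 0 were higher and 6 lower (35.3%), against 4.07% higher and 21.6% lower of all tested probe sets. MRPS10 and MRPS27 fell at 1 h and were lower at 3 h and 6 h too, while MRPS17, MRPS28, MRPS30 and MRPS7 were lower at 6 h, MRPS17 at 3 h as well.

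MRPS10, the counterpart of bacterial S10 in the head of the subunit, read 6.09 and 5.43 at 0 h, 5.20 and 4.76 at 0.5 h, 4.01 and 4.38 at 1 h, 4.46 and 4.57 at 3 h, and 4.48 and 4.63 at 6 h. All arrays of later times lay below both of 0 h, and those of 1 h, 3 h and 6 h lay below log2 5. The change was -1.56 at 1 h (SE 0.239, limma adjusted p = 0.00222), -1.24 at 3 h (adjusted p = 0.0076) and -1.21 at 6 h (adjusted p = 0.00916). Values raised to log2 5 gave -0.76 at each of the 3 times, with adjusted p of 0.0222 to 0.0235. All arrays of these times then stood at 5, so the 3 equal values show only that 0 h lay above log2 5. MRPS10 did not pass a filter at log2 7, and that setting was not run for it. The 1 h call held in every setting run, while the call at 3 h ended without 0 h replicate 1 (-0.91, adjusted p = 0.0508) and that at 6 h without 0 h replicate 1 (-0.88, adjusted p = 0.0566) or on leaving out 6 h replicate 1 (-1.13, adjusted p = 0.0576).

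MRPS27, a protein built of pentatricopeptide repeats, read 8.09 and 8.07 at 0 h, 8.00 and 8.01 at 0.5 h, 7.67 and 7.66 at 1 h, 7.41 and 7.38 at 3 h, and 7.18 and 7.45 at 6 h. Every later array lay below both of 0 h, and the mean was lower at each successive time. The change was -0.41 at 1 h (SE 0.11, limma adjusted p = 0.0246), -0.68 at 3 h (adjusted p = 0.00425) and -0.77 at 6 h (adjusted p = 0.00298). The calls at 3 h and 6 h held with any 1 array left out, and the 1 h call ended without either array of 0 h or 1 h (-0.42 to -0.40, adjusted p of 0.0746 to 0.109) and with equal array medians (-0.13, adjusted p = 0.404).

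MRPS17, the counterpart of bacterial S17, read 6.97 and 7.15 at 0 h, 6.43 and 6.41 at 3 h, and 6.56 and 6.45 at 6 h. Its change was -0.65 at 3 h (SE 0.122, limma adjusted p = 0.00739) and -0.56 at 6 h (adjusted p = 0.0135), and no array of either time overlapped those of 0 h. With equal array medians these were -0.33 and -0.31 (adjusted p = 0.0727 and 0.116), and the 6 h call ended without 0 h replicate 2 (-0.47, adjusted p = 0.0674) or on leaving out 6 h replicate 2 (-0.50, adjusted p = 0.0602).

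MRPS28 read 6.69 and 6.80 at 6 h, against 7.67 and 7.43 at 0 h, a change of -0.81 (SE 0.172, limma adjusted p = 0.012). MRPS7, the counterpart of bacterial S7, read 7.28 and 7.08 at 6 h, against 7.78 and 7.64 at 0 h, a change of -0.53 (SE 0.122, adjusted p = 0.016), which was -0.28 with equal array medians (adjusted p = 0.176). Neither gene's arrays overlapped between these times. The call of MRPS28 ended without 0 h replicate 1 (-0.68, adjusted p = 0.0875) or on leaving out 6 h replicate 1 (-0.75, adjusted p = 0.0683), and that of MRPS7 without 0 h replicate 1 (-0.46, adjusted p = 0.1) or on leaving out 6 h replicate 2 (-0.43, adjusted p = 0.0756).

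MRPS30 carries a small subunit symbol, but structures of the human mitochondrial ribosome place it in the large subunit. Its tested probe set read 5.71 and 5.84 at 0 h, 6.41 and 5.71 at 0.5 h, 6.12 and 5.83 at 1 h, 5.18 and 5.19 at 3 h, and 4.55 and 4.86 at 6 h, so that the 3 h and 6 h arrays lay below all earlier ones. The change was -1.07 at 6 h (SE 0.223, limma adjusted p = 0.0111) and ended as a call without either 0 h array or 6 h replicate 1 (-1.14 to -0.92, adjusted p of 0.0555 to 0.0721). Against 1 h MRPS30 was lower at 6 h (-1.27, adjusted p = 0.00562), a call that held with any 1 array left out. It ended without a filter (limma adjusted p = 0.0611) and with the spike-in covariate (-1.14, adjusted p = 0.0591). Both 6 h arrays lay below log2 5, so MRPS30 passed the filter only through other times. With values raised to log2 5 the 6 h change from 0 h was -0.77 (adjusted p = 0.0309). This shows only that 0 h lay above log2 5, and neither fall to 6 h is measured.

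Higher small subunit calls were made at 1 h in MRPS16, MRPS34 and the MRPS18B probe set 208907_s_at. MRPS16, the counterpart of bacterial S16, read 7.86 and 7.73 at 1 h, against 7.37 and 7.22 at 0 h (0.50, SE 0.113, limma adjusted p = 0.0124). The MRPS18B probe set read 6.68 and 6.80 at 1 h, against 6.46 and 6.24 at 0 h (0.39, SE 0.111, adjusted p = 0.0309), and MRPS34, found only in mitochondrial ribosomes, read 5.28 and 5.18, against 4.97 and 4.91 (0.29, SE 0.093, adjusted p = 0.0494). The groups did not overlap in any of the 3. The call of MRPS34 ended without any 1 array (0.24 to 0.34, adjusted p of 0.0603 to 0.193) and with values raised to log2 5 (0.23, adjusted p = 0.0643), that of MRPS16 without 0 h replicate 2 (0.42, adjusted p = 0.0677) or on leaving out 1 h replicate 1 (0.43, adjusted p = 0.0702), and that of MRPS18B without 0 h replicate 2 or either 1 h array (0.29 to 0.45, adjusted p of 0.0588 to 0.151).

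MRPS15, the counterpart of bacterial S15, was called at 1 h alone, with 6.16 and 6.56, against 6.88 and 6.81 at 0 h (-0.48, SE 0.137, limma adjusted p = 0.0313). With equal array medians the change was -0.20 (adjusted p = 0.292), and the call ended without either 0 h array or 1 h replicate 1 (-0.52 to -0.28, adjusted p of 0.0798 to 0.15). Genes with several probe sets differed in how far these agreed. The 2 of MRPS18A had changes of 0.32 and 0.11 at 1 h, neither called, and the second MRPS18B probe set, 217408_at, had a change of 0.26 at 1 h (adjusted p = 0.431). Of the 4 for MRPS12 and the 2 each for MRPL20, MRPS11 and MRPS30, 1 was tested, and both of MRPL9 were tested, with changes of 0.54 and 0.09 at 1 h, neither called.

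The late and the early part of the series were also compared directly. At 6 h against 1 h, 6 members were higher and 12 lower, with 12.2% of all tested probe sets higher and 11.7% lower. All 6 higher ones had large subunit symbols (of 31) and 7 of the 17 small subunit probe sets were lower, with 5 lower in the large subunit. No small subunit member was called higher in limma's test, and 1 was at an unadjusted p under 0.05. The array medians of 6 h and 1 h differed by 0.04, and with equal array medians 6 members were higher and 13 lower (14.3% and 16.1% of all tested probe sets). With the spike-in level as a covariate 6 were higher and 5 lower (7.02% and 3.81% of all tested probe sets). In that fit MRPS10, of the small subunit, was called higher (0.87, limma adjusted p = 0.0168). MRPL39 was no longer called there (1.11, adjusted p = 0.077), so the split between subunits depended on the setting.

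Among the lower ones at 6 h was MRPS12, the counterpart of bacterial S12 at the decoding centre, which read 7.99 and 7.85 at 6 h, against 8.66 and 8.60 at 1 h (-0.70, SE 0.14, limma adjusted p = 0.00951). The call ended without 1 h replicate 1 (-0.67, adjusted p = 0.0585) or on leaving out 6 h replicate 2 (-0.63, adjusted p = 0.0599). MRPL46 (-0.91), MRPS28 (-0.71), MRPS17 (-0.59), MRPL15 (-0.55), MRPL57 204386_s_at (-0.48), MRPS16 (-0.45), MRPS7 (-0.44), MRPS18B 208907_s_at (-0.42) and MRPL18 (-0.36) were lower too, with limma adjusted p of 0.00973 to 0.0327. Each of these 9 calls ended without at least 1 array of 6 h or 1 h, with adjusted p of 0.0517 to 0.167, and with quantile normalization again those of MRPL57, MRPS7 and MRPL18 ended (-0.43, -0.41 and -0.30, adjusted p of 0.0555 to 0.0735).

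Set side by side, the subunits' median changes from 0 h lay close to each other. At 0.5 h, 1 h, 3 h and 6 h the median was 0.06, 0.12, -0.20 and -0.15 in the small subunit and 0.12, 0.08, -0.18 and -0.02 in the large subunit, against 0.01, -0.03, -0.15 and -0.14 over all tested probe sets. The small subunit had 0 called higher and 0 lower at 0.5 h, 3 and 3 at 1 h, 0 and 3 at 3 h, and 0 and 6 at 6 h. The large subunit had 2 and 5, 4 and 7, 2 and 6, and 1 and 3. Of all tested probe sets 1.92% were higher and 15.1% lower at 0.5 h, 4.14% and 24.2% at 1 h, 2.53% and 26.4% at 3 h, and 4.07% and 21.6% at 6 h. Between 6 h and 1 h the medians were -0.41 in the small and -0.17 in the large subunit, and -0.06 over all tested probe sets. No test of the difference between subunits was made.

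With equal array medians the subunit medians were above 0 at all 4 times, 0.41 in the small and 0.36 in the large subunit at 1 h, 0.11 and 0.13 at 3 h, and 0.09 and 0.22 at 6 h. The direction of the medians at 3 h and 6 h therefore turned with the scaling. That scaling shifts all probe sets alike, so the subunit medians minus the median of all tested probe sets did not move. In the small and the large subunit these were 0.14 and 0.10 at 1 h, -0.05 and -0.03 at 3 h, and -0.01 and 0.12 at 6 h. Counting MRPS30 and MRPS18A with the large subunit, as structures place them, left 14 small subunit probe sets with 5 lower at 6 h and 34 large subunit probe sets with 4 lower and 1 higher. The 82 tested probe sets of cytosolic ribosomal proteins, at much higher levels, had medians of 0.00, 0.05, 0.02 and 0.03, with 4 higher and 14 lower at 0.5 h, 9 and 20 at 1 h, 9 and 4 at 3 h, and 7 and 4 at 6 h.

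**Figure D4:**
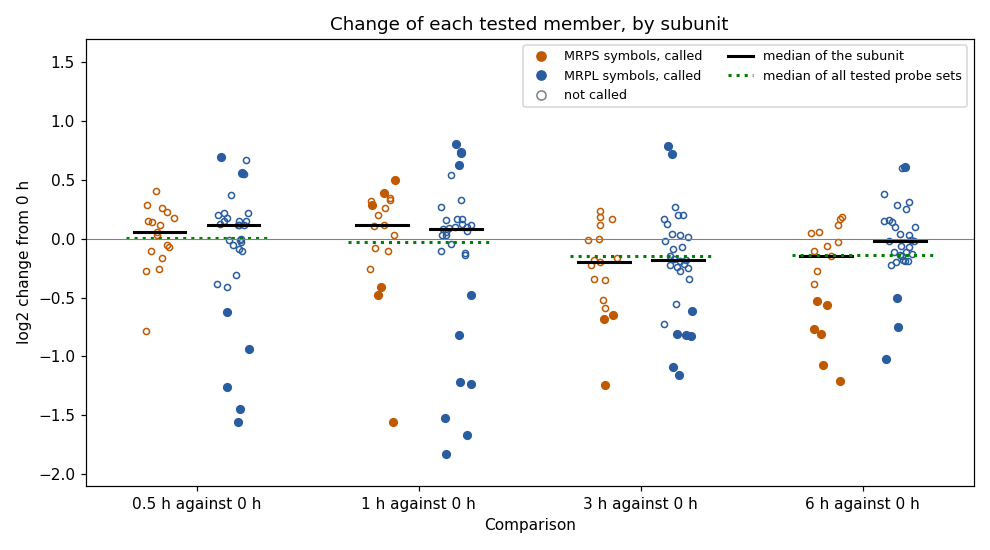
Change of each tested member from 0 h (vertical axis, log2) at 0.5, 1, 3 and 6 h (horizontal axis), with MRPS symbols in orange at the left and MRPL symbols in blue at the right of each comparison; filled points were called, black bars are subunit medians and dotted lines the median of all tested probe sets. At 1 h the medians were 0.12 and 0.08, and the lowest point, MRPL13, was at -1.83.

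Genes that work with the mitochondrial ribosome were described from lists that hold none of the members. At 1 h their median changes were 0.09 for assembly factors, -0.16 for aminoacyl-tRNA synthetases, -0.32 for transcription and RNA processing and 0.15 for translation factors, against -0.03 over all tested probe sets. Their counts are to be read against the 15.1%, 24.2%, 26.4% and 21.6% of all tested probe sets that were lower at the 4 times. Of 9 tested probe sets of assembly factors, 1, 1, 2 and 2 were lower at the 4 times and 0 higher. MTERF3, which in mouse acts in the assembly of the large subunit, was one of them at 0.5 h, 1 h and 3 h. It read 4.89 and 5.57 at 0 h, 4.10 and 4.32 at 0.5 h, 3.32 and 3.52 at 1 h, 3.95 and 3.68 at 3 h, and 5.31 and 5.15 at 6 h. The arrays of the middle 3 times lay below log2 5 and below both of 0 h and of 6 h (limma adjusted p = 0.017, 0.00113 and 0.00375). With values raised to log2 5 the change was -0.29 at each of these times and was not called (adjusted p of 0.26 to 0.313).

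NGRN, needed for the 16S ribosomal RNA of mitochondria, was lower at 3 h (-0.57, limma adjusted p = 0.0392) and 6 h (-1.06, adjusted p = 0.00445), and MRM3, a methyltransferase of that RNA, at 6 h (-0.43, adjusted p = 0.0184). The 6 h call of NGRN held with any 1 array left out, its 3 h call ended in 11 of 19 settings and that of MRM3 in 6 of 18, among them equal array medians (-0.18, adjusted p = 0.342). Of 7 tested probe sets of aminoacyl-tRNA synthetases, 2, 3, 2 and 2 were lower and 0 higher. All of these belonged to KARS1 and GARS1, whose enzymes serve cytosol and mitochondria alike. KARS1 200079_s_at read 8.31 and 8.28 at 1 h, against 9.60 and 9.37 at 0 h (-1.19, adjusted p = 0.000792), and GARS1 read 7.58 and 7.47 at 1 h, against 8.61 and 8.43 at 0 h (adjusted p = 0.00499), and both calls held in every setting run.

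Of 8 tested probe sets for mitochondrial transcription and RNA processing, 1, 2, 3 and 2 were lower and 0 higher. GRSF1, which binds mitochondrial RNA, changed by -1.22 at 3 h in 201501_s_at (limma adjusted p = 0.0028) and by -0.75 in 201520_s_at (adjusted p = 0.00756). The first probe set was also called lower at 0.5 h and 1 h. Its 0.5 h call ended in 9 of 18 settings and its 1 h call in 0 of 18. The second was called lower at 6 h too, a call that ended in 12 of 19 settings. LRPPRC, which stabilizes mitochondrial messenger RNA, was lower at 1 h (-0.85, adjusted p = 0.0405) and 3 h (-0.80, adjusted p = 0.0491), and its partner SLIRP at 6 h (-0.52, adjusted p = 0.0253). The calls of LRPPRC ended in 12 and 15 of 18 settings and that of SLIRP in 7 of 19, and with the spike-in covariate the calls of all the list genes named here at 3 h and 6 h against 0 h ended. None of the 4 tested translation factors was called against 0 h by limma, with 1 lower at 1 h and 1 higher and 1 lower at 6 h at an unadjusted p under 0.05. At 6 h against 1 h, OXA1L, the insertase for newly made membrane proteins, was higher (0.46, adjusted p = 0.0273) and the elongation factor TSFM lower (-0.75, adjusted p = 0.0322), and each call ended in 5 settings. DAP3 and GADD45GIP1, mitochondrial ribosomal proteins under other symbols, were not called at any time, with changes of -0.20 and 0.35 at 1 h (adjusted p = 0.467 and 0.113).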

How the data were processed

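For each probe set the authors deposited a score computed with GCRMA, per the submitters' processing notes, whose version, scale and later steps are not given in the sources used here. Their square roots, up to 15.43, were read as log2, so all sizes depend on that reading. Of 22283 probe sets, 68 controls were left out, and the 4276 with at least 2 arrays at log2 5 were tested with limma 3.58.1 in R 4.3.3 (lmFit, eBayes) over the 10 arrays, time being the single factor (5 residual degrees of freedom), with Benjamini-Hochberg adjustment over all tested probe sets within each comparison. Called means an adjusted p under 0.05; the procedure was tested on simulated data. Array values were given for the called members with the highest and lowest changes at each time, the steadiest, the brightest and those leading the F test were named, and list genes were named if called. DAP3, GADD45GIP1 and the members below the filter were chosen after their values were seen. The members, lists and rules were chosen with earlier results of these data known. Symbols came from the platform annotation and promoters from RefSeq, GRCh38.p14. Alternatives covered scaling, filter, scale, floor, replicate block, spike-in covariate, 1 probe set per gene, current symbols and each array left out.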

Additional observations from a re-analysis of the deposited data

How the results depend on the processing

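Of 63 calls of members (6 h against 1 h included), 13 held in every setting run, 50 ended in at least 1, and 0 reversed. Without a filter 35 calls ended and with the spike-in level as a covariate 41. Most of these endings are not repeated gene by gene above. With equal array medians the 1 h count was 32, against 17 as deposited (52% of all tested probe sets, against 28.4%), and quantile normalization applied again gave 17 at 3 h, against 11 (37.3%, against 28.9%). The filter at log2 7 left out MRPS10, MRPL48 and MRPL35, so that setting was not run for their calls among the 13 that held. Without a filter the counts at 0.5 h, 1 h, 3 h, 6 h, 6 h against 1 h and over the 5 times were 1, 11, 5, 4, 7 and 8 of 63 members. Of all probe sets in that fit 1.38%, 3.92%, 3.06%, 3.04%, 2.17% and 3.75% were called, in the same order. The filter at log2 7 left 30 members, with counts of 3, 7, 7, 6, 13 and 13. There 21.2%, 34.3%, 37.7%, 35.4%, 35.2% and 52.1% of all probe sets were called. At 1 h the members' share was 17.5% without a filter and 23.3% with the filter at log2 7. With the spike-in level as a covariate the counts of members were 1, 11, 0, 0, 11 and 10 by limma. Of all tested probe sets 5.47%, 18.5%, 0%, 0.491%, 10.8% and 17.8% were called. At an unadjusted p under 0.05 there were 6 members at 3 h and 8 at 6 h. Over all tested probe sets this fit called 0 at 3 h and 21 at 6 h. Leaving out each array in turn gave 1 to 9, 10 to 16, 5 to 13, 3 to 11, 7 to 18 and 15 to 21; the lowest came without 0 h replicate 1 at 0.5 h, 3 h and 6 h, without 1 h replicate 1 at 1 h and at 6 h against 1 h, and without 6 h replicate 2 over the 5 times. Replicate numbers did not pair the arrays (correlations of deviations of -0.231 to 0.147). A replicate block gave 7, 16, 14, 10, 18 and 20 members, with 17.3%, 28%, 29.2%, 26.6%, 24.6% and 39.9% of all tested probe sets called. That block ended only the call of MRPS34 at 1 h (limma adjusted p = 0.0629). It added 3 h calls of MRPL42 (-0.72, adjusted p = 0.0136), MRPL46 (-0.55, adjusted p = 0.0356) and MRPS28 (-0.52, adjusted p = 0.0319). At 0.5 h, 1 h, 3 h and 6 h the small subunit median was 0.19, 0.41, 0.11 and 0.09 with equal array medians and 0.20, 0.38, 0.11 and 0.08 with quantile normalization again, and the large subunit median was 0.25, 0.36, 0.13 and 0.22, then 0.23, 0.30, 0.11 and 0.17; the shift of the array medians is the construction of these settings. The small subunit median at 6 h was -0.26 with the spike-in covariate and -0.27 with 1 probe set per gene, and the large subunit median at 0.5 h with 1 probe set per gene was -0.00. Leaving out arrays gave small subunit medians of -0.32 to -0.13 at 3 h and -0.32 to -0.01 at 6 h and large subunit medians of -0.28 to -0.03 at 3 h. The cause of these differences was not tested. Subunit medians on log2 of the deposited value or on the untransformed value are in another unit and were not set beside these.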
